A study of Coturnix japonica and Phalacrocorax auritus with 29 samples.

Results

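Dual specificity phosphatase 4 (DUSP4) and epiregulin (EREG) are 2 genes tied to the mitogen-activated protein (MAP) kinase pathway. They were taken by the feature names dual_specificity_phosphatase_4 and epiregulin from RNA-seq count tables of embryonic liver, and both names were present in both tables, as 2 of 25523 names found in either table. The tables cover 29 livers, 1 library per embryo, from Japanese quail (*Coturnix japonica*) and double-crested cormorant (*Phalacrocorax auritus*), whose fertilized eggs had received chlorpyrifos, an organophosphate insecticide, or the solvent DMSO by injection into the air cell before incubation. The quail groups were 5 control, 5 medium dose and 5 high dose embryos, and the cormorant groups were 4 control, 5 medium dose and 5 high dose embryos. Every embryo, controls included, was incubated at 37 °C and 60% humidity in an injected egg. Quail were labelled development day 9 and cormorants day 16, except that the fifth quail control was labelled day 16. Nominal injected amounts were 0.4, 4 and 40 µg per gram of egg in either species, but the labels do not say which of them is medium or high. They do say that mortality in each species guided the choice of the high dose, so medium and high need not mean the same exposure in quail and cormorant.

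The MAP kinase cascade carries signals from receptors at the cell surface to the nucleus through RAS, RAF, MEK and the kinase ERK. Epiregulin is a ligand of the epidermal growth factor (EGF) family that is shed from the cell surface and activates the receptors EGFR and ERBB4, while DUSP4 is a nuclear phosphatase that removes phosphate from ERK and the related kinases JNK and p38. In mammals both genes are known as targets that ERK signalling switches on, so DUSP4 acts within a negative feedback loop, and epiregulin is known for its part in liver regeneration. In the RefSeq annotation of the quail assembly Coturnix japonica 2.1, used here for gene order only, EREG lies between its paralogs EPGN and AREG, and DUSP4 lies between SPINK2 and TNKS.

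Read totals per library ran from 11548222 to 27778954 in quail and from 9890108 to 21976904 in cormorant, and no pair of libraries held identical values. DUSP4 was covered by 64 to 191 reads per quail library and EREG by 15 to 190. In cormorant DUSP4 had 369 to 1017 reads and EREG 36 to 121. Both genes passed the filter on low counts in both species. The labelled tissue was checked on 12 hepatocyte markers, which summed to between 135502 and 263375 CPM (counts scaled to a common library total) in all libraries, and none was at 0. The first quail medium dose library had a raised sum of 6 muscle markers, 255.6 CPM, against 99.4 to 166.9 CPM in the other quail libraries. That sum does not separate heart from skeletal muscle. The first quail high dose library held kidney transcripts, with 6 kidney markers summing to 1525 CPM. Gut markers, 5 of them present, summed to 99.4 CPM in the fifth quail high dose library, 56.4 CPM in the second and 50.0 CPM in the first medium dose library, against at most 22.3 CPM in the other quail libraries. In cormorant 4 kidney markers summed to 316.6 CPM in the second control, against at most 93.7 CPM in the other libraries. Below, a library said to hold muscle, kidney or gut transcripts is one with such a raised sum. In bulk liver, fewer cells that transcribe a gene and less RNA per cell cannot be told apart.

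In cormorant livers DUSP4 was lower at both doses than in the controls. The values below are CPM scaled by TMM, a method that corrects library size for differences in composition. The controls numbered 1 to 3 had 67.0, 60.1 and 64.6 CPM and the control without a number in its column name had 51.6 CPM. The medium dose libraries 1 to 5 had 34.7, 37.3, 38.3, 33.9 and 34.9 CPM, and the high dose libraries had 44.6, 38.3, 34.1, 41.5 and 39.3 CPM. All 10 exposed livers lay below all 4 controls, and the lowest control was above the highest exposed liver by more than the whole range of the medium dose group.

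DUSP4 averaged 39.5 ± 3.88 CPM in high dose livers (SD, n = 5) and 60.8 ± 6.77 CPM in controls (SD, n = 4), a log2 fold change of -0.62 ± 0.10 (SE), or a change of -35.0%. The medium dose mean was 35.8 ± 1.90 CPM (SD, n = 5), a log2 fold change against the same controls of -0.76 ± 0.10 (SE), or -41.1%. Between the doses, high minus medium was 0.14 ± 0.10 (SE) on the log2 scale and their values overlapped. In order of level the controls came first, then the high dose and then the medium dose, and only the step from the controls exceeded the spread of the groups.

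Epiregulin had the same order in cormorant. It had 7.15, 6.17 and 7.69 CPM in controls 1 to 3 and 5.60 CPM in the unnumbered control. The medium dose libraries had 3.48, 4.30, 2.48, 2.82 and 3.19 CPM, and the high dose libraries 4.43, 3.44, 4.06, 3.82 and 4.69 CPM. Again every exposed liver lay below every control, and the 2 dose groups overlapped.

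The epiregulin mean was 4.08 ± 0.49 CPM in high dose livers (n = 5) and 6.65 ± 0.94 CPM in controls (SD, n = 4). The log2 fold change was -0.71 ± 0.18 (SE), or -38.8%. At the medium dose the mean was 3.25 ± 0.70 CPM (SD, n = 5) and the log2 fold change -1.04 ± 0.18 (SE), or -51.4%. High minus medium was 0.33 ± 0.18 (SE) on the log2 scale. With 36 to 62 reads per medium dose library, EREG carries more counting error than DUSP4.

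The 2 genes were chosen by these cormorant contrasts of exposed livers with controls, so their cormorant values are a description and no test is attached to them. Of 14579 features tested, 5 had an adjusted p under 0.05 at the high dose (edgeR quasi-likelihood test) and 7 at the medium dose. The background share called was 0.0343% at the high dose and 0.048% at the medium dose. Of all features tested, 26, or 0.178%, were lower in all 10 exposed cormorant livers than in all 4 controls.

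**Figure D1:**
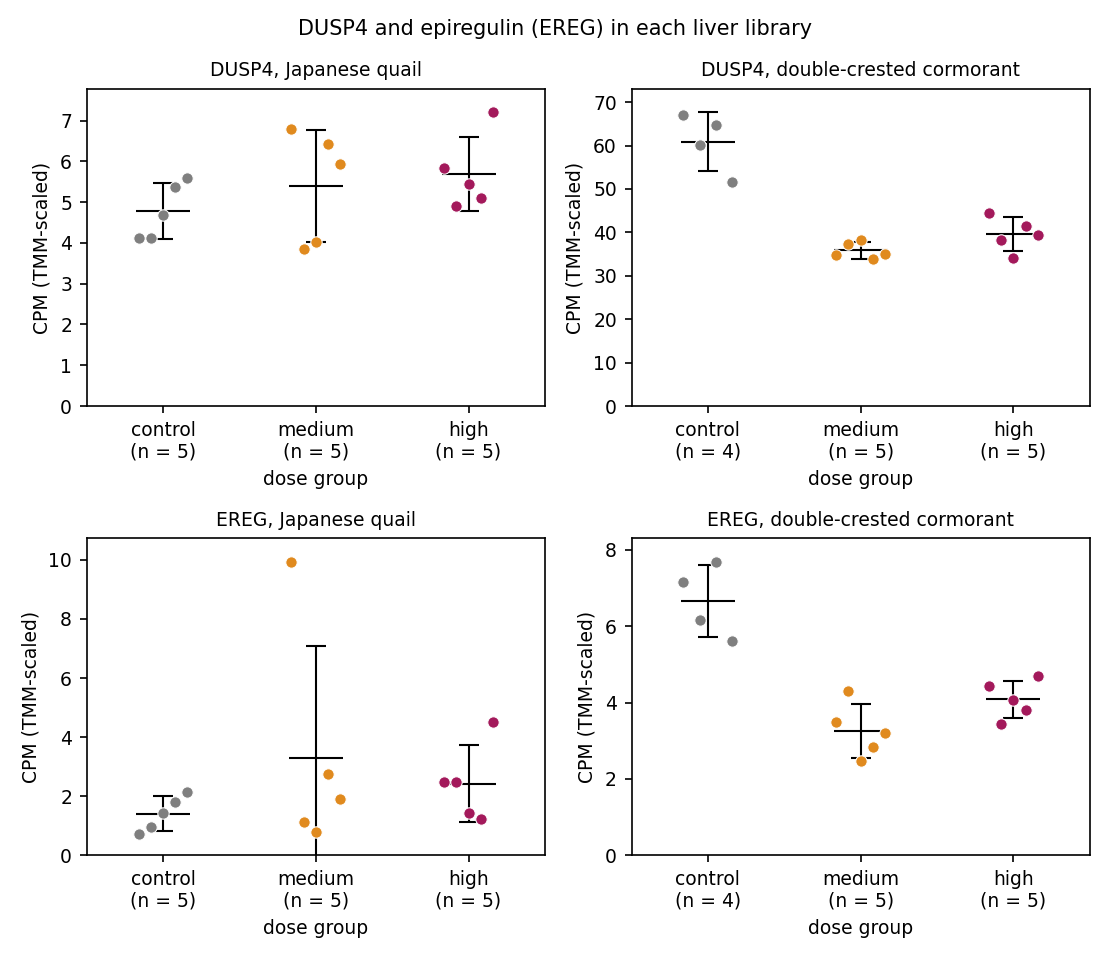
Each point is 1 liver library, plotted as TMM-scaled CPM by dose group for DUSP4 (top) and EREG (bottom) in Japanese quail (left) and double-crested cormorant (right), with the group mean and SD as black bars (the lower bar of EREG in the quail medium dose group is clipped at 0). In cormorant all 10 exposed livers lie below all 4 controls for both genes, while in quail the groups overlap and 1 medium dose liver stands at 9.93 CPM of EREG.

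The cormorant columns carry a letter and number before the sample code, and the sample code differs between the groups. All 4 control columns have the code CE2 and all 10 exposed columns the code CE5, so whatever those codes stand for cannot be told apart from exposure. The numbers 11 and 6 each held both kinds of library. Among columns with the number 11, medium dose libraries 1 and 2 had 34.7 and 37.3 CPM of DUSP4, against 60.1, 64.6 and 51.6 CPM in 3 controls. For EREG the same libraries had 3.48 and 4.30 CPM at the medium dose, against 6.17, 7.69 and 5.60 CPM in the controls. Among columns with the number 6, the only high dose library had 44.6 CPM of DUSP4 and 4.43 CPM of EREG, against 67.0 and 7.15 CPM in the only control. The columns with the number 12 were all exposed. Since all 10 exposed livers lay below all 4 controls, the direction within each number was fixed in advance. The codes CE2 and CE5 still followed exposure within each number. Without the 2 libraries numbered 6 the log2 fold changes at the high dose were -0.62 for DUSP4 and -0.71 for EREG.

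Among markers of other cell types, those of red blood cells moved with exposure in cormorant. The 6 erythroid markers present averaged 157.7 ± 51.8 CPM in exposed livers (SD, n = 10) and 94.8 ± 31.4 CPM in controls (SD, n = 4), with 6 of the 10 exposed livers above the highest control, and their part in the lower DUSP4 and EREG was not tested. The kidney and the gut sums lay below every control in 3 of 5 medium dose livers each, and in 0 of 5 high dose livers. Those gut sums were low, at 1.73 to 3.49 CPM over the medium dose group, and the part of either list was not tested. For all 10 marker lists examined the summed CPM of the exposed livers overlapped that of the controls. The 7 macrophage markers present, a cell type known to make epiregulin in mammals, summed to between 55.9 and 99.1 CPM in exposed livers and between 46.4 and 107.0 CPM in controls. As a description, each library was left out in turn. The log2 fold change of DUSP4 at the high dose then ran from -0.69 to -0.57 and that of EREG from -0.78 to -0.62. Without the second control, which holds kidney transcripts, they were -0.63 for DUSP4 and -0.75 for EREG.

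In quail livers neither gene changed past the threshold at either dose. The controls 1 to 5 had 4.13, 4.12, 4.68, 5.37 and 5.60 CPM of DUSP4. The medium dose libraries had 6.80, 3.84, 4.02, 6.42 and 5.93 CPM, and the high dose libraries 5.84, 4.90, 5.44, 5.10 and 7.20 CPM. The 3 groups overlapped, with 3 medium dose and 2 high dose livers above the highest control and 2 medium dose livers below the lowest control.

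The quail contrasts did not choose the genes and were tested. DUSP4 averaged 5.69 ± 0.91 CPM in high dose livers and 4.78 ± 0.69 CPM in controls (SD, n = 5 each). The log2 fold change was 0.25 ± 0.18 (SE), with an interval of -0.10 to 0.61 (2 SE on either side), and did not pass the threshold (edgeR quasi-likelihood test, adjusted p = 0.533). At the medium dose the mean was 5.40 ± 1.38 CPM (SD, n = 5) and the log2 fold change 0.17 ± 0.18 (SE), with an interval of -0.19 to 0.53 and an adjusted p of 0.999. High minus medium was 0.08 ± 0.18 (SE), with an interval of -0.28 to 0.44 and an adjusted p of 0.908. In exact two-sided permutation tests on log2 CPM, where 5 against 5 livers allow p-values down to 0.00794, DUSP4 gave p = 0.111 for high against control, 0.452 for medium against control and 0.603 for high against medium, and adjusted over the 6 such tests of both genes they were 0.429, 0.679 and 0.724.

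Epiregulin varied far more between quail livers than DUSP4 did. The controls had 0.73, 0.97, 1.45, 1.79 and 2.14 CPM. The medium dose libraries had 9.93, 1.12, 0.79, 2.76 and 1.92 CPM, and the high dose libraries 2.47, 2.48, 1.43, 1.24 and 4.52 CPM. The first medium dose liver stood apart, and 3 of 5 high dose and 2 of 5 medium dose livers were above the highest control, with none below the lowest.

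The EREG mean was 2.43 ± 1.30 CPM in high dose livers and 1.41 ± 0.58 CPM in controls (SD, n = 5 each). The log2 fold change of 0.79 ± 0.61 (SE) had an interval of -0.43 to 2.0 and an adjusted p of 0.579 (edgeR quasi-likelihood test). At the medium dose the mean was 3.30 ± 3.78 CPM (SD, n = 5). The log2 fold change was 1.23 ± 0.61 (SE), with an interval of 0.01 to 2.45. Its unadjusted p of 0.0619 became 0.999 after edgeR's test was adjusted over all 14927 features. Without the first medium dose liver, which holds muscle transcripts, this log2 fold change was 0.22 ± 0.45 (SE). Without the fifth high dose liver, which holds gut transcripts, the high dose value was 0.43 ± 0.63 (SE) for EREG and 0.15 ± 0.18 (SE) for DUSP4. Without the first high dose liver, which holds kidney transcripts, it was 0.78 ± 0.66 (SE) for EREG and 0.25 ± 0.19 (SE) for DUSP4. High minus medium was -0.44 ± 0.58 (SE) with all livers and 0.57 ± 0.45 (SE) without the first medium dose liver, so that its sign rested on 1 library. The exact permutation tests gave p = 0.143 for high against control, 0.349 for medium against control and 1 for high against medium, or 0.429, 0.679 and 1 after adjustment over the 6 tests.

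Ranked by mean, quail EREG was highest at the medium dose and lowest in the controls, whereas by median the high dose came first with 2.47 CPM, then the medium dose with 1.92 CPM and the controls with 1.45 CPM. No neighbours in either order differed beyond their spread. The quail control labelled day 16 had the highest control value of both genes, 5.60 CPM of DUSP4 and 2.14 CPM of EREG. Without it the high dose log2 fold changes were 0.32 for DUSP4 and 0.99 for EREG, neither past the threshold in edgeR's test (adjusted p = 0.469 and 0.532).

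The high dose effect on DUSP4, as quail minus cormorant, differed by 0.87 ± 0.20 (SE) on the log2 scale, and that on EREG by 1.49 ± 0.66 (SE), in a fit of all 29 libraries over the names that both tables share. These differences contain the cormorant contrast that chose the genes and are given without a test. Levels are not compared between the species, since their counts were made and scaled in separate tables.

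DUSP4 and EREG varied together among the quail livers. Over 15 quail libraries Pearson's r of their log2 CPM was 0.85 (permutation p = 3e-05) and Spearman's rho was 0.85 (permutation p = 0.00011), or 0.00012 and 0.00022 after adjustment over 4 values. Without the 2 livers farthest from the median of EREG, the first medium dose and the fifth high dose liver, which both hold gut transcripts, r was 0.84. The second high dose liver, which also holds gut transcripts, stayed in. With each dose group centred on its mean, r was 0.85 over the same 15 libraries. In cormorant the exposed and control livers formed separate clusters, and within the 10 exposed livers r was 0.41 (permutation p = 0.24) and rho 0.43 (permutation p = 0.22), both 0.24 after adjustment. Without the 2 exposed livers farthest from the median of EREG, r was 0.50. With 15 and 10 libraries, these values do not show that the relation differs between the species.

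**Figure D2:**
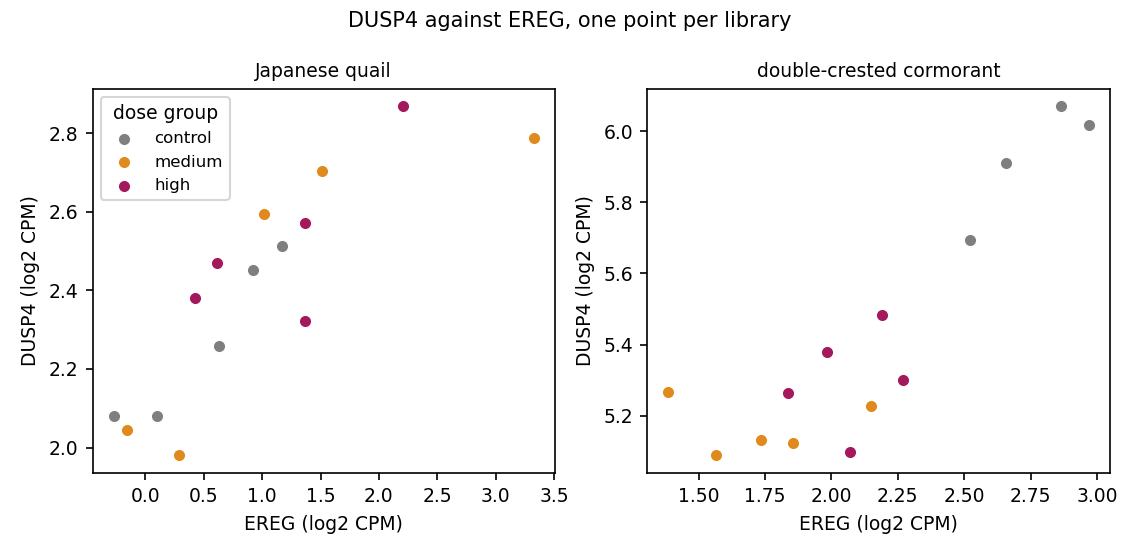
DUSP4 is plotted against EREG, both as log2 CPM with a prior count of 2, with 1 point per liver library coloured by dose group. In quail the points of all 3 groups run along 1 line (r = 0.85, n = 15), and in cormorant the 4 controls form a separate cluster at the upper right.

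Genes whose pattern was most like that of each member were found by the correlation of log2 CPM over all libraries of a species, as a description. Over the 15 quail libraries, DUSP4 was nearest to polo-like kinase 3 (r = 0.89), a stress-responsive kinase, and EREG came second with r = 0.85. It was followed by tumor protein p53 inducible nuclear protein 2, NACC family member 2 (r = 0.84 each) and ankyrin repeat domain 61 (r = 0.84). Quail EREG was nearest to NACC family member 2 (r = 0.91) and tumor protein p53 inducible nuclear protein 2 (r = 0.88), followed by DUSP4. KCTD5 and the apoptosis regulator MCL1 came next at r = 0.85 each. NACC family member 2 and tumor protein p53 inducible nuclear protein 2 thus stood on both quail lists.

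Over the 14 cormorant libraries, DUSP4 was nearest to LDLRAD4, UDP-galactose 4-epimerase, the short chain dehydrogenase SDR42E1, the splicing factor SRSF5 and SAMD4A. EREG was nearest to SRSF5, the protease PCSK7, DUSP4 and TRIM35. With 4 controls standing apart from 10 exposed livers, these correlations contain the step between them. With each group centred on its mean, r with DUSP4 was 0.81 for SDR42E1 and 0.32 for SRSF5, and r between DUSP4 and EREG was 0.34.

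The other phosphatases of the DUSP4 family were next examined, from lists chosen with earlier results of these data known. The MAP kinase phosphatase list holds 9 genes besides DUSP4, of which 7 were tested in each species. In quail at the high dose 1 of the 7 rose and none fell, with a median log2 fold change of 0.22 over the list, against 0.01 over all features tested. The background share called in that comparison was 3.56%, or 531 of 14927 features. The one that rose was DUSP16, a phosphatase of JNK and p38, with 36.3 ± 8.27 CPM in high dose livers and 24.7 ± 2.50 CPM in controls (SD, n = 5 each) and a log2 fold change of 0.56 ± 0.14 (SE, adjusted p = 0.0441, edgeR). That call was lost without any 1 of 10 of the 15 libraries, with adjusted p-values of up to 0.102 in edgeR's test, the first high dose library with kidney transcripts among them (0.0531). It was also lost with limma voom (adjusted p = 0.0594) and in edgeR's fit of only the 2 groups compared (0.0762). At the quail medium dose, where 0% of all features passed, the median of the 7 was 0.28, against 0.01 over all features tested. The first medium dose liver was the highest of the quail libraries for 5 of the 7.

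DUSP5, an ERK phosphatase of the nucleus like DUSP4 in location, had 6.22, 7.77, 10.1, 7.03 and 39.0 CPM in the quail high dose libraries, against 4.73 to 6.85 CPM in controls. The fifth high dose liver, also the highest for DUSP4, carried most of the difference. The log2 fold change was 1.31 ± 0.45 (SE) and missed the threshold (adjusted p = 0.137, edgeR), whereas DESeq2 called it (adjusted p = 0.0427). Without the fifth high dose liver it was 0.45 log2 units in edgeR's fit. DUSP8, a phosphatase of JNK and p38, had a log2 fold change of 0.99 ± 0.41 (SE, adjusted p = 0.236, edgeR). DUSP10, DUSP1 and DUSP6 had -0.11, -0.05 and 0.05 on the log2 scale, each with an SE larger than its value.

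In cormorant at the high dose none of the 7 other MAP kinase phosphatases passed, where only 0.0343% of all features did. The median log2 fold change of the 7 was -0.13, against -0.01 over all features tested. All 7 estimates were below 0, from -0.41 ± 0.31 (SE) for DUSP5 to -0.05 ± 0.16 (SE) for DUSP1, and each was smaller than that of DUSP4, but DUSP7 was at 0.16 without the second control and DUSP10 at 0.026 without the first high dose liver. At the medium dose the median was -0.30, and DUSP5 had 1.54 ± 0.50 CPM (n = 5), against 2.86 ± 0.34 CPM in controls (SD, n = 4). That log2 fold change of -0.90 ± 0.31 (SE) had an unadjusted p of 0.0109 and an adjusted p of 0.724 in edgeR's test. Because these phosphatases are paralogs and the counting was done by protein name, reads could be shared between them, which was not tested.

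Among the 14 atypical dual specificity phosphatases 11 were tested in each species. In quail at the high dose DUSP28 fell, at 0.691 ± 0.261 CPM, against 1.64 ± 0.319 CPM in controls (SD, n = 5 each), with a log2 fold change of -1.23 ± 0.28 (SE, adjusted p = 0.022, edgeR). That call was lost without any 1 of 4 of the 15 libraries, namely the third or the fourth high dose liver, or the second or the fourth control, with adjusted p-values of up to 0.0588 in edgeR's test. It was also lost without the 2 livers holding muscle and kidney transcripts (0.0544). The median of that list was -0.06, against 0.01 over all features tested, of which 3.56% were called, 1.44% lower. No gene of the list passed in the cormorant contrasts, where at most 0.048% of all features did.

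The EGF family ligands were 10 genes besides EREG, of which 7 were tested in quail and 8 in cormorant. In quail at the high dose 1 fell and none rose, with a list median of -0.34. Of all features tested 3.56% were called, 1.44% lower, and their median was 0.01. NRG2, a neuregulin that binds ERBB3 and ERBB4, averaged 4.61 ± 1.5 CPM in high dose livers and 9.50 ± 2.74 CPM in controls (SD, n = 5 each), a log2 fold change of -1.04 ± 0.23 (SE, adjusted p = 0.0213, edgeR). That call was lost without the fourth or the fifth control (adjusted p = 0.0641 and 0.0523). It was also lost in edgeR's fit of only the 2 groups compared (adjusted p = 0.0626). HBEGF, a ligand of EGFR and ERBB4 like epiregulin, had a log2 fold change of 0.97 ± 0.50 (SE, adjusted p = 0.353, edgeR), and BTC and AREG, at under 1 CPM on average, had -0.97 ± 0.55 and -0.83 ± 0.54 (SE), neither past the threshold.

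No EGF family ligand passed in the cormorant contrasts, where at most 0.048% of all features did. The list median was -0.01 at the high dose and -0.06 at the medium dose. AREG, the neighbour of EREG in the quail assembly, had 0.903 ± 0.185 CPM in high dose livers (n = 5) and 1.28 ± 0.284 CPM in controls (SD, n = 4), with a log2 fold change of -0.47 ± 0.28 (SE, adjusted p = 1, edgeR). EPGN, the neighbour on the other side, had -0.05 ± 0.21 (SE), and in quail it did not pass the filter on low counts. HBEGF had -0.35 ± 0.26 (SE) and NRG4, an ERBB4 ligand, 0.47 ± 0.32 (SE).

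**Figure D3:**
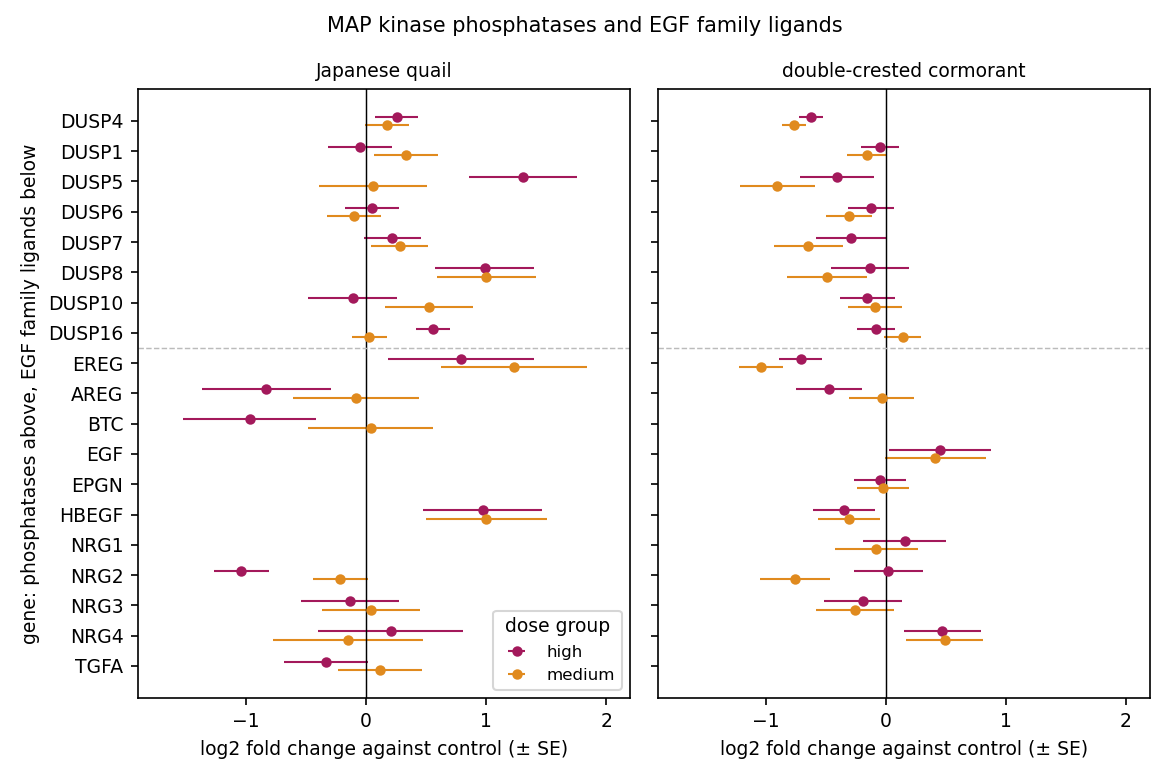
Log2 fold changes against control with their SE are plotted for DUSP4 and the other MAP kinase phosphatases (above the dashed line) and for EREG and the other EGF family ligands (below it), for the high and medium doses in quail (left) and cormorant (right). In cormorant DUSP4 lies at -0.62 and -0.76 and EREG at -0.71 and -1.04, and genes without points did not pass the filter on low counts.

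The rest of the pathway was described from 7 further lists. Across all 9 lists 122 of 145 genes were tested in quail and 121 in cormorant. In quail at the high dose 4 rose and 3 fell, together 5.74% of those tested, against 3.56% of all features (2.12% higher and 1.44% lower), and their median log2 fold change was 0.03. Besides DUSP16, DUSP28 and NRG2 the called genes were MYC, GADD45A, MAP3K4 and ERBB2. No gene of the receptor adaptor list (11 tested), the RAS-RAF-MEK-ERK core (14 tested) or the list of feedback inhibitors (11 tested) passed. The 28 ERK-responsive transcription targets tested had a median of 0.30 at the high dose and 0.34 at the medium dose. Over all features tested it was 0.01 at each dose. Medians of the other further lists at the high dose ran from -0.13 for ErbB receptors and ligand shedding to 0.09 for the RAS-RAF-MEK-ERK core.

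MYC, a transcription factor induced by growth factor signalling, had 16.8, 14.98, 24.7, 17.5 and 29.2 CPM in the quail high dose libraries, against 7.09 to 10.2 CPM in controls. Its log2 fold change was 1.23 ± 0.19 (SE, adjusted p = 0.00177, edgeR), and all 5 high dose livers were above all controls, as for 2.7% of all features. GADD45A, a stress-induced activator of the p38 and JNK branch, averaged 17.6 ± 2.45 CPM in high dose livers and 10.02 ± 0.61 CPM in controls (SD, n = 5 each), a log2 fold change of 0.81 ± 0.11 (SE, adjusted p = 0.00108, edgeR). MAP3K4, the kinase to which GADD45 proteins bind, averaged 32.1 ± 4.32 CPM, against 20.5 ± 1.64 CPM in controls (SD, n = 5 each), with 0.65 ± 0.11 (SE, adjusted p = 0.00356, edgeR). ERBB2, the co-receptor with which EGF family receptors pair, fell to 36.2 ± 5.31 CPM, against 52.0 ± 3.66 CPM in controls (SD, n = 5 each), with -0.52 ± 0.11 (SE, adjusted p = 0.0151, edgeR). All 5 high dose livers were below all controls for ERBB2, as for 2.2% of all features. The calls of these 4 genes at the high dose against control held without each library in turn. EPHA4 and IER3, of the same target list as MYC, did not pass in edgeR's test. EPHA4 had a log2 fold change of 0.50 and was called only without the third control (adjusted p = 0.0249, edgeR). DESeq2 called IER3, with a log2 fold change of -0.40 ± 0.14 (SE, adjusted p = 0.048).

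Against the medium dose the quail high dose livers had 3 pathway genes higher and 1 lower, 3.28% of those tested, against 1.89% of all features (1.38% higher and 0.509% lower). In edgeR's test MAP3K4, GADD45A and MYC rose by 0.64 ± 0.11, 0.62 ± 0.11 and 0.80 ± 0.18 log2 units (SE), and GADD45B fell to 2.54 ± 0.66 CPM, against 5.45 ± 1.47 CPM at the medium dose (SD, n = 5 each). The MYC call of that comparison was lost without any 1 of 9 of the 15 libraries, with adjusted p-values of up to 0.0999 in edgeR's test, and without the 2 livers holding muscle and kidney transcripts (0.0615). In edgeR's fit of only the 2 groups compared, the calls of MYC (adjusted p = 0.114), GADD45A (0.0566) and GADD45B (0.0587) were lost. No feature, or 0%, passed in quail at the medium dose against control, where 646 of 14927 had an unadjusted p under 0.05 in edgeR's test and DESeq2 called 6.

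Several marker lists moved with the quail high dose. The 12 hepatocyte markers summed to between 136000 and 210532 CPM in high dose livers and between 233262 and 263375 CPM in controls. The 5 granulocyte and thrombocyte markers present summed to between 43.0 and 94.7 CPM in high dose livers and between 98.5 and 159.0 CPM in controls. The 8 bile duct markers averaged 291.6 ± 75.4 CPM in high dose livers and 175.3 ± 32.8 CPM in controls (SD, n = 5 each), with 4 of 5 high dose livers above every control. The erythroid and the stellate and fibroblast sums lay below every control in 4 of 5 high dose livers each, and the gut sums lay above every control in 3 of 5. The part of these lists in the quail changes was not tested.

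In cormorant no pathway gene passed at the high dose, the medium dose or between the doses. Of all features only 0.0343% passed at the high dose and 0.048% at the medium dose, so none called is near that share. The pathway genes had a median log2 fold change of -0.05 at the high dose and -0.03 at the medium dose. For the 26 ERK-responsive transcription targets tested the medians were -0.09 and -0.23, and for the receptor adaptors 0.10 and 0.17. Over all features tested the median was -0.01 at each dose. Between the doses no feature, or 0%, passed of 14579 tested, where 475 had an unadjusted p under 0.05 in edgeR's test and DESeq2 called 4. FOS, an immediate early transcription factor, averaged 0.397 ± 0.113 CPM in high dose livers (n = 5) and 0.848 ± 0.230 CPM in controls (SD, n = 4), and all 5 high dose livers lay below all controls, as for 0.556% of all features. Its log2 fold change of -1.08 ± 0.44 (SE) did not pass (adjusted p = 0.864, edgeR). KLF2 had -0.57 ± 0.23 (SE) and JUN, the partner of FOS, -0.22 ± 0.11 (SE), neither past the threshold. Quail FOS had a log2 fold change of 1.33 at the high dose. The difference between the species in FOS, 2.41 ± 0.89 log2 units (SE, quail minus cormorant), did not pass (adjusted p = 0.222, edgeR).

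The high dose effect differed between the species for 3 of 125 pathway genes, or 2.4%, against 1.21% of the 15596 features tested. For MYC quail minus cormorant was 1.49 log2 units (adjusted p = 0.00114, edgeR), with a cormorant log2 fold change of -0.27 ± 0.15 (SE). For GADD45A it was 1.41 (adjusted p = 0.0015, edgeR), where cormorant had -0.60 ± 0.21 (SE), and for ERBB2 -0.69 (adjusted p = 0.0355, edgeR), where cormorant had 0.15 ± 0.13 (SE). The ERBB2 call was lost without any 1 of 9 of the 29 libraries, with the highest adjusted p in edgeR's test, 0.104, without the second cormorant control, which holds kidney transcripts.

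**Figure D4:**
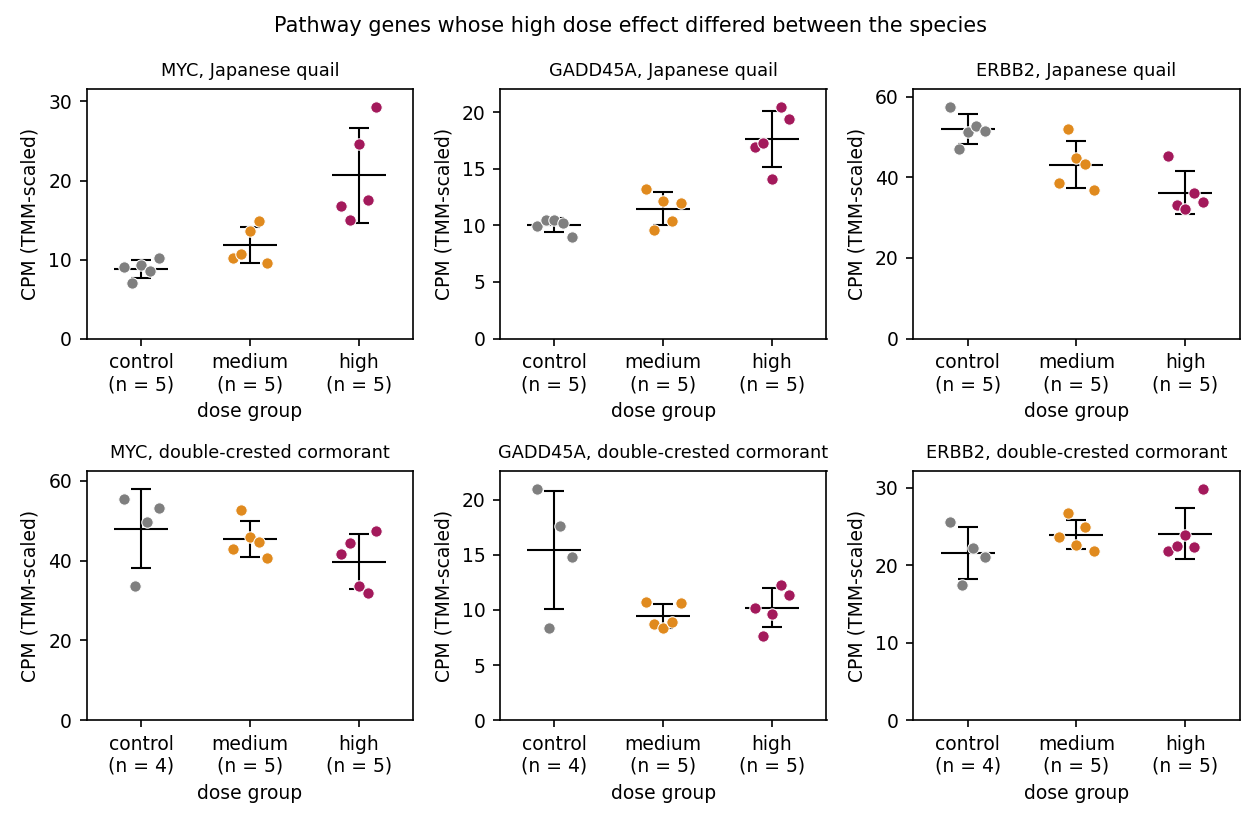
MYC, GADD45A and ERBB2 are plotted as TMM-scaled CPM by dose group, 1 point per liver library, with quail above and cormorant below and the group mean and SD as black bars. In quail all 5 high dose livers lie above all controls for MYC and GADD45A and below them for ERBB2, and in cormorant the groups overlap.

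The quail liver with the most EREG was also the highest for many other listed genes. That first medium dose liver, with 9.93 CPM of EREG, was the highest of the 15 quail libraries for 27 of 122 pathway genes, or 22.1%, against 9.69% of all features tested. It was the highest for 5 of 7 other MAP kinase phosphatases and for 12 of 28 ERK-responsive transcription targets. Genes named here after their values were seen include DUSP1 with 26.6 CPM, against at most 14.9 CPM in the other 14 libraries, FOS with 6.74 CPM, against at most 4.42 CPM, EGR1 with 24.1 CPM, against at most 16.6 CPM, and JUN with 50.8 CPM, against at most 29.2 CPM. The fifth high dose liver, with 4.52 CPM of EREG and the highest DUSP4, was highest for 11 of the 122 genes, or 9.02%, near its share of 7.59% of all features, with MYC and DUSP5 among them. The first medium dose liver also held muscle and gut transcripts and the fifth high dose liver gut transcripts, and their part in these values was not tested. The second high dose liver, with 56.4 CPM of gut markers, had 2.48 CPM of EREG, above the highest control at 2.14 CPM. Its DUSP4, at 4.90 CPM, was the lowest of its group. The part of gut transcripts in either value was not tested.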

How the data were processed

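Whole-number read counts per protein name were deposited by the authors in 1 table per species, with 1 column per library. The label descriptions tie the tables to Seq2Fun, and edgeR is named with no role or version per the submitters' processing notes. The sources used here give no aligner settings, strand use or genome build. Reads were paired, 101 bp, per the labels' protocols. The totals of 9890108 to 27778954 counts per library set the precision, and EREG, with 15 to 190 counts, has the larger counting error.

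From the counts, edgeR 4.0.16 (R 4.3.3) fitted all libraries of a species with 1 mean per group (filterByExpr with minimum counts of 10 and 15 in total, TMM scaling, robust quasi-likelihood fit), with Benjamini-Hochberg adjustment over all features tested and a threshold of 0.05. A standard error is the size of the log2 fold change divided by the root of its F value. Log2 CPM used a prior count of 2. The species difference was fitted over names in both tables. The script was tested on simulated data. Exact permutation tests ran over livers, and correlations used 100000 permutations (scipy 1.17.1).

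Groups come from the sample titles. The tables' S columns were read as controls, the only group left over. One cormorant control column carries a number that no control title holds and was used without a replicate number, as a control only. Labels do not say whether embryos shared a parent, so p-values measure the spread between these livers.

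The members and gene lists were chosen with earlier results of these data known. Named genes are the members, list genes past the threshold in any comparison, the 3 with the smallest p at the high dose in the phosphatase, ligand and target lists, and the 5 features most correlated with each member, of which 1 is not reported here. Of 145 listed genes, 133 were present by name in each table. Alternatives were RLE size factors in edgeR's fit, the test of DESeq2 1.42.0, limma 3.58.1 voom, no filter and a replicate block. Others were a fit of only the 2 groups compared, each library left out, a prior count of 0.5 and CPM of the library total. Leaving out 2 libraries, in each species, was added after seeing the data.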

Additional observations from a re-analysis of the deposited data

Results flagged for a closer look

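Dose groups of 4 or 5 livers were screened for a liver far from the others in the 23 genes carried through the alternatives, members included. In 132 groups 16 livers were picked out. With normally distributed values, chance alone picks out about 1 group in 20. The screen ran on CPM without logs, and the share that chance picks out in such values was not tested. Epiregulin in quail medium dose liver 1, at 9.93 CPM, was the only value picked out for a member. The same liver was picked out for JUN at 50.8 CPM. DUSP5 in quail high dose liver 5 stood at 39.0 CPM and MAP3K4 in quail medium dose liver 5 at 25.4 CPM. KLF2 in quail high dose liver 3 was at 18.6 CPM. In quail controls the values were 2.62 CPM of AREG in liver 4, 12.9 CPM of EPHA4 in liver 3, and 1.68 CPM of FOS and 21.1 CPM of JUN in liver 2. NRG4 was picked out in quail high dose liver 1 at 1.70 CPM, quail medium dose liver 4 at 0.0950 CPM, cormorant high dose liver 3 at 3.67 CPM and cormorant control 3 at 2.10 CPM. The remaining cormorant livers were high dose liver 5 with 29.8 CPM of ERBB2, control 2 with 1.19 CPM of FOS and the unnumbered control with 6.83 CPM of EPHA4.

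Between the species the high dose effect differed in edgeR's test of the difference itself for MYC by 1.49 log2 units (quail minus cormorant), for GADD45A by 1.41 and for ERBB2 by -0.69.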

How the results depend on the processing

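Cormorant DUSP4 and EREG kept their direction against control, in every alternative run. Because those contrasts chose the 2 genes and the groups did not overlap, this could hardly have come out otherwise for either gene. In quail neither passed the threshold in any, and their direction against control held in all. Only their high against medium difference changed sign. For EREG it was 0.055 with voom and 0.57 without high dose liver 1 (kidney transcripts) and medium dose liver 1 (muscle transcripts). High dose livers 2 and 5, which hold gut transcripts, stayed in that fit. With 1 library left out the EREG difference ran from -0.80 to 0.57. For DUSP4 that range was -0.027 to 0.18. As differences of mean log2 CPM, EREG was at 0.010 with a prior count of 0.5 and 0.024 with CPM of the library total, against -0.001 as reported, and ranged from -0.34 to 0.53 with 1 library left out, and DUSP4 ranged from -0.010 to 0.19. The uncalled cormorant high dose values of DUSP7 ranged from -0.50 to 0.16 and of DUSP10 from -0.25 to 0.026.

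DESeq2 called 972 features for quail high against control, 6 for medium against control and 598 for high against medium (7 pathway genes). In cormorant it called 60, 52 and 4, and for the species difference 361. A fit of only the 2 groups compared gave 128 for quail high against medium (1 pathway gene) and 2 for cormorant high against control, where no filter gave 3 and leaving out the 2 libraries numbered 6 gave 16. With 1 library left out, quail high against control gave 303 to 659 (4 to 8 pathway genes), quail high against medium 166 to 391, and cormorant 2 to 14 at the high dose, 6 to 16 at the medium dose and 0 to 1 between doses. The cause of these shifts was not tested.

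Replicate numbers were shared by the groups, but the labels name no batch behind them, so the main fit has no block. Some pairs of the same number deviated together and others did not. Correlations of their deviations from the group means ran from -0.12 to 0.15 in quail and from -0.12 to 0.39 in cormorant, where 6 of 11 pairs were over 0.1 and the median was 0.162, against -0.0245 for other pairs. Own-number libraries correlated best for 4 of 15 quail and 7 of 13 cormorant libraries. In cormorant, libraries of the same number thus tended to deviate together, and the main fit does not account for that. The replicate block gave 187 called for quail high against medium, against 282 in the main fit. For cormorant it gave 2 at high against control and 1 at high against medium, against 5 and 0. For the species difference it gave 93, against 188. Under the block, 2 of the named calls were lost in edgeR's test, MYC in quail high against medium (adjusted p = 0.0530) and ERBB2 between the species (adjusted p = 0.210). What depth limits was not tested. EREG had as few as 15 reads in a quail library.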
